A study of Mus musculus with 6 samples.

Results

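The circadian clock genes and outputs described here are 10 genes: Arntl and Npas2 of the activating arm, Per1, Per2, Per3, Cry1, Nr1d1 and Nr1d2 of the repressing arm, and the outputs Dbp and Usp2. They were found on the array by gene name, which matched 12 probes of 39429 (31829 names in all). RNA came from the non-tumor liver of 6 mice (male, C57BL/6, 5 weeks old at the start), each read on 1 single-colour Agilent array. The control group (3 mice) ate a LabDiet control diet, and the restricted group (3 mice) ate a diet moderately restricted in carbohydrate. The title of the series, but not the sample labels, combines the restricted diet with calorie restriction mimetic multiple phytochemicals. Sample titles of both groups, controls included, call the diet supplemented without naming the supplement. All 6 mice, controls included, received the HrasG12V / shp53 / GFP4 transposon vector (an activated human HRAS, a hairpin against mouse p53 and a fluorescent reporter) by hydrodynamic tail vein injection, which carries DNA into only part of the liver's cells. There was therefore no mouse without the tumour model. Feeding before and then on the diet lasted 1 and 5 weeks by the sample labels, but 2 and 4 weeks by the series' design text. The time of day at which each mouse was killed and its last meal are not given in the sources used here.

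The clock is a loop of transcription and repression that runs in nearly every cell, hepatocytes included. ARNTL (also called BMAL1), paired with CLOCK or NPAS2, binds E-boxes and switches on the Per and Cry genes, whose products then block the pair. It also switches on the nuclear receptors NR1D1 and NR1D2 (REV-ERB alpha and beta), which repress Arntl through elements called ROREs. DBP and its relatives TEF and HLF bind D-boxes and pass the rhythm on to metabolic genes, and NFIL3 represses through the same boxes. In mouse liver the mRNAs of these genes rise and fall over the day, with Arntl and Npas2 roughly opposite in phase to Nr1d1, Dbp and the Per genes and Cry1 later than the Per genes.

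The promoter windows of the members show where these elements lie. RefSeq windows (GRCm38.p6, from 250 bases before to 50 after each start site, which is position 0) were found for 9 of the 10 members, the exception being Per2, and some genes have more than 1 window. Both strands were searched for the E-box CACGTG, its variant CACGTT, the D-box as TTATGTAA or TTACGTAA, and the RORE by its usual consensus. None of the matches shown overlap. The stretches below run 5′ to 3′ on the gene's own strand, with the matched bases in capitals, and are those of the members that hold a match. Per3 holds a pair of D-boxes that begin at positions -205 and -158. Per1 holds an E-box at -166 in 1 of its windows, and Cry1 an E-box at -60 and the variant at -79. Nr1d1 holds the variant at -28, and Arntl a RORE at 26, after the start site, in 1 of its windows. Both variants lie on the other strand and so read AACGTG here.
Arntl, chr7:113207528-113207556, plus strand: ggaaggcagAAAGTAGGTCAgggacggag
Per1, chr11:69098758-69098813, plus strand: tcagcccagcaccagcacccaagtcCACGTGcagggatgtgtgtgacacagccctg
Per3, chr4:151044791-151044895, minus strand: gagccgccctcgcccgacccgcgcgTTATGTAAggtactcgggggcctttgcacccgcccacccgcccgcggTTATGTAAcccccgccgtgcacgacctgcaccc
Cry1, chr10:85185084-85185158, minus strand: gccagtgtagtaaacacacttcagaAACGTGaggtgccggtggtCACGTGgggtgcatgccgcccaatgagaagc
Nr1d1, chr11:98775378-98775430, minus strand: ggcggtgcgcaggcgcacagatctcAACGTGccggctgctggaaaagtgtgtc

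Of 32851 windows of 300 bases in the reference table, 7.15% hold the E-box, 4.68% the variant, 1.06% a D-box and 0.384% a RORE. The windows of Npas2, Nr1d2, Dbp and Usp2 hold none of the 4 motifs, which says only that these letters are not in these windows. A match is a description of the sequence and not a measured binding site.

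Arrays differed in brightness and were put on a common scale, so values below are log2 signals relative to the 75th percentile of the array, where a step of 1 is a factor of 2. The number of probes well above background ran from 23527 to 25816 an array. Differences are restricted minus control with the SE and the adjusted p of limma's moderated test over 19616 features, and a gene was called at an adjusted p under 0.05. The number of arrays limits the precision, and 27.5% of all features were called (14.6% higher and 12.8% lower in the restricted group) around a median difference of 0.12. All 3 control arrays and restricted mouse 1 shared a slide, and restricted mice 2 and 3 were on another, so the slide was also fitted as a block; that estimate is the same as the difference of restricted mouse 1 from the 3 control mice on slide 1. The hepatocyte markers Alb, Ttr, Apoc3 and Serpina1a were saturated on all 6 arrays, and none of the 8 hepatocyte markers passed the test. Markers of other cells moved with the diet. Of these, 8 of 8 macrophage and Kupffer cell markers fell, with a summed signal of 209 to 281 times the 75th percentile in control mice and 37.1 to 53.6 times in restricted mice, and 6 of 6 markers of dividing cells fell, from 4.03 to 6.08 down to 0.619 to 1.05. Lower too were 5 of 8 neutrophil markers (1 of 8 rose; summed signal 151 to 181 against 91.8 to 135), 5 of 8 of stellate cells and fibroblasts (108 to 143 against 45.8 to 73.9), 3 of 5 of bile duct (4.31 to 5.07 against 0.678 to 1.61) and 4 of 8 of T and NK cells (5.37 to 8.08 against 5.96 to 8.03). In contrast 3 of 8 markers of liver endothelium rose (24.9 to 37.1 against 42.3 to 56.3), and none of the 3 measured B cell markers passed (1.69 to 2.02 against 0.434 to 1.57). In bulk tissue, fewer cells of a type and less RNA per cell cannot be told apart, and the part of these markers in the clock results was not tested.

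Dbp, Usp2 and Nr1d2 were higher in the livers of mice on the restricted diet, and no member was lower by the test. Of the 9 members that were measured above background, 3 were called, a share near the 27.5% of all features called in either direction. All 3 were higher, against 14.6% of all features called higher. The same 3 were the members whose values did not overlap between the diets, against 44.8% of all features. Arntl, Per1, Per2, Per3, Cry1 and Nr1d1 did not pass. With the slide as a block 1 of the 3 calls was left, that of Usp2, and 1 was also left without control mouse 1 or without restricted mouse 2.

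**Figure D1:**
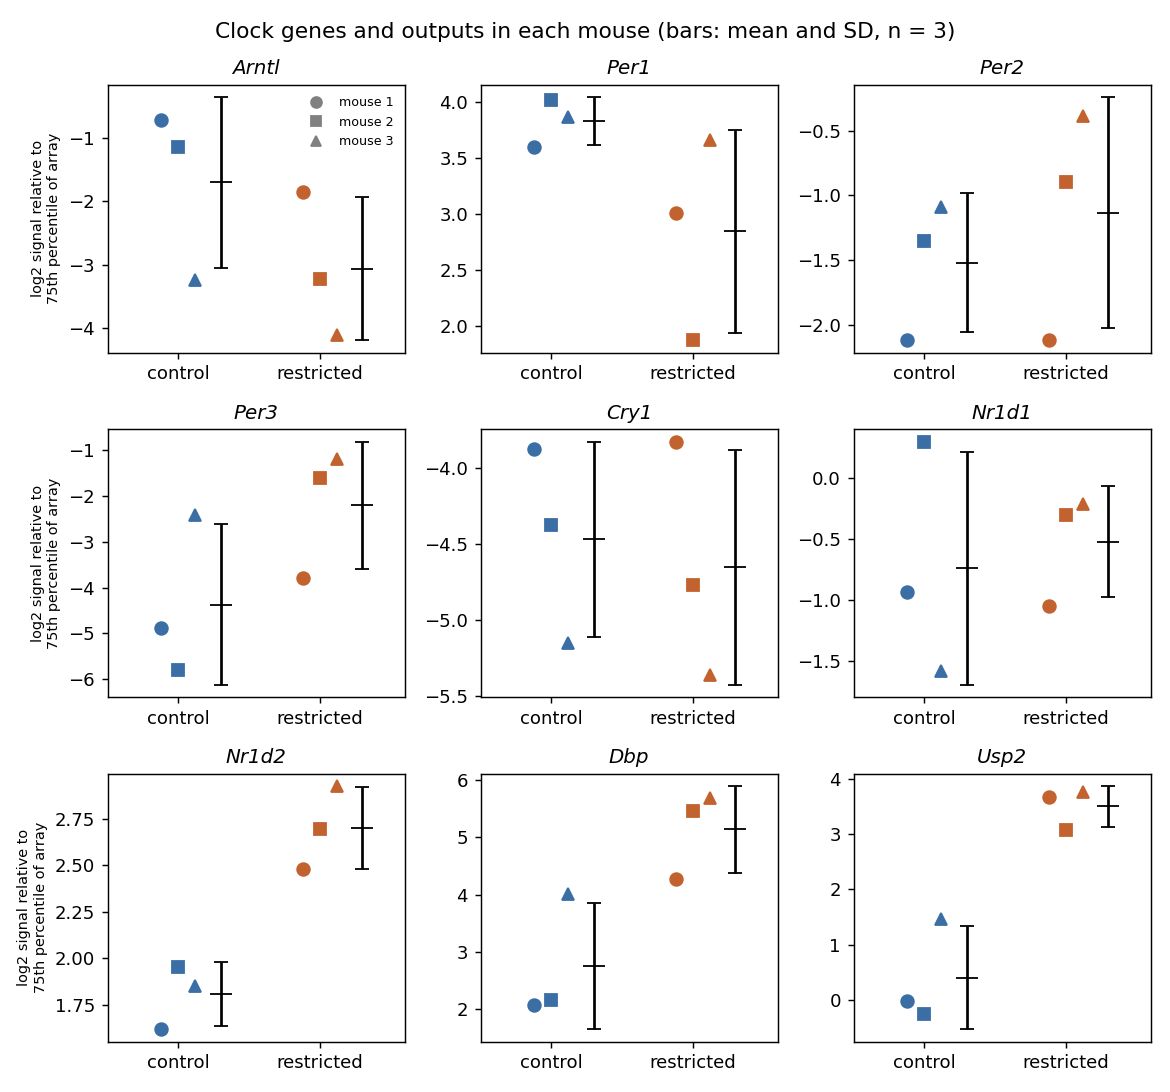
Log2 signal relative to the 75th percentile of the array for the 9 measured members, 1 panel a gene, in each mouse on the control (blue) and restricted (orange) diet; marker shapes give the mouse number, and black bars the mean and SD of 3 mice. Nr1d2, Dbp and Usp2 do not overlap between the diets, while for Arntl control mouse 3 lies at -3.24, beside restricted mouse 2.

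The activating arm rests on Arntl alone. Arntl encodes the partner that both CLOCK and NPAS2 need (NM_007489, probe on mm9 chromosome 7, 120457261 to 120457320). It measured -0.73, -1.14 and -3.24 in control mice 1 to 3 and -1.85, -3.23 and -4.10 in restricted mice 1 to 3. Control mouse 3 lay with the restricted mice, and restricted mouse 1 lay nearest to the other controls, so the groups overlapped. The difference was -1.36 ± 0.78 (SE, n = 3 each, adjusted p = 0.240), with a 95% interval from -3.20 to 0.48, and it was -0.15 with the slide as a block. With array weights Arntl passed (-1.86, adjusted p = 0.0407), and with normexp background correction it differed by -0.66 (adjusted p = 0.243). Npas2, the alternative partner, was not well above background on any of the 6 arrays (probe on mm9 chromosome 1, 39418941 to 39419000), so no difference is given for it. Clock, the usual partner, differed by 0.03 ± 0.22 (adjusted p = 0.939) and its values lay between -1.10 and -0.41 in all 6 mice. Blocking on slide gave 0.36 for it (adjusted p = 0.452).

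None of the 3 Per genes passed the test. Per1, which hormones such as glucocorticoids also induce directly (NM_011065, mm9 chromosome 11, 68923364 to 68923423), measured 3.59, 4.02 and 3.86 in control mice and 3.01, 1.87 and 3.65 in restricted mice. Restricted mouse 2 was the lowest, while restricted mouse 3 lay among the controls. The difference was -0.98 ± 0.43 (adjusted p = 0.137), and it passed without restricted mouse 3 (-1.39, adjusted p = 0.0436). Per1 differed by -0.82 when slide was blocked (adjusted p = 0.467). Per2, a core repressor, measured -2.12, -1.35 and -1.09 against -2.12, -0.89 and -0.38 (mm9 chromosome 1, 93313046 to 93313105). Mouse 1 of each diet had the same low value to 2 decimals, and the difference was 0.39 ± 0.48 (adjusted p = 0.583), or -0.60 under the slide block. Per3, which is not essential to the loop and whose window carries the pair of D-boxes printed above, had the widest range of the family (NM_011067, mm9 chromosome 4, 150379256 to 150379315). It measured -4.89, -5.81 and -2.42 in control mice, of which mouse 2 was not well above background, and -3.78, -1.61 and -1.20 in restricted mice. Control mouse 3 again lay among the restricted mice. The difference was 2.17 ± 0.98 (adjusted p = 0.147), with an interval from -0.15 to 4.50; it was 3.15 without control mouse 3 (adjusted p = 0.0318) and 0.59 with the slide as a block.

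Cry1, a cryptochrome that partners the PER proteins in blocking the loop, was near background (NM_007771, mm9 chromosome 10, 84594731 to 84594790). It measured -3.88, -4.38 and -5.15 in control mice and -3.83, -4.77 and -5.36 in restricted mice, the last of which was not well above background. Within each diet mouse 1 was the highest and mouse 3 the lowest. The difference of -0.18 ± 0.46 (adjusted p = 0.800, interval -1.27 to 0.90) was smaller than the SD within either diet, and it was 0.64 under the slide block. Cry2, the other cryptochrome, differed by 0.36 ± 0.29 (adjusted p = 0.393), or 0.24 under the slide block.

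Of the REV-ERB receptors Nr1d2 rose and Nr1d1 did not pass; the difference between them was not tested. Nr1d1 (NM_145434, probe spanning mm9 chromosome 11, 98630526 to 98631028) measured -0.93, 0.30 and -1.58 in control mice and -1.04, -0.30 and -0.22 in restricted mice. Control mouse 2 was the highest of all 6 and control mouse 3 the lowest. Its difference was 0.22 ± 0.48 (adjusted p = 0.773, interval -0.92 to 1.36), or -0.30 under the slide block. Nr1d2 was the steadiest member (BC096461, mm9 chromosome 14, 19036568 to 19036627). It measured 1.62, 1.95 and 1.85 in control mice and 2.48, 2.70 and 2.92 in restricted mice, with no overlap. It rose by 0.89 ± 0.19, or 1.86-fold (adjusted p = 0.0147). Its other probe, NM_011584 at 19037253 to 19037312, rose by 0.73 when every probe was tested (adjusted p = 0.0351). With the slide as a block Nr1d2 differed by 0.67 (adjusted p = 0.154), and the call also ended without control mouse 1 (adjusted p = 0.0551) or restricted mouse 2 (adjusted p = 0.0543).

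The outputs showed the largest rises. Dbp encodes the D-box activator that takes its name from the albumin promoter (NM_016974, mm9 chromosome 7, 52965322 to 52965381). It measured 2.07, 2.16 and 4.02 in control mice and 4.27, 5.46 and 5.68 in restricted mice. The groups did not overlap, but control mouse 3 lay just below restricted mouse 1, the lowest of its group. Dbp rose by 2.39 ± 0.60, or 5.23-fold (adjusted p = 0.0256, interval 0.97 to 3.80), and its other probe, at 52965461 to 52965520, rose by 2.99 when every probe was tested (adjusted p = 0.0247). The call ended when slide was blocked (1.52, adjusted p = 0.247), with quantile normalization or no background filter (adjusted p = 0.0510 and 0.0513), and when any mouse but control 3 and restricted 1 was left out (2.05, 2.09, 2.23 and 2.12 without control 1, control 2, restricted 2 and restricted 3). Without control 3 Dbp rose by 3.02 (adjusted p = 0.00591).

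Usp2 encodes a deubiquitinating enzyme whose transcript cycles in most tissues (NM_198092, mm9 chromosome 9, 43903649 to 43903708). It measured -0.01, -0.24 and 1.47 in control mice and 3.66, 3.08 and 3.75 in restricted mice. The gap between the highest control mouse and the lowest restricted mouse was wide, although control mouse 3 again stood above its group. Usp2 rose by 3.09 ± 0.46, or 8.52-fold (adjusted p = 0.00353, interval 2.01 to 4.18). It passed under all 18 alternatives that were run, with differences from 2.77 to 3.62 and adjusted p up to 0.0410, and blocking on the slide gave 3.26 (adjusted p = 0.0264).

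**Figure D2:**
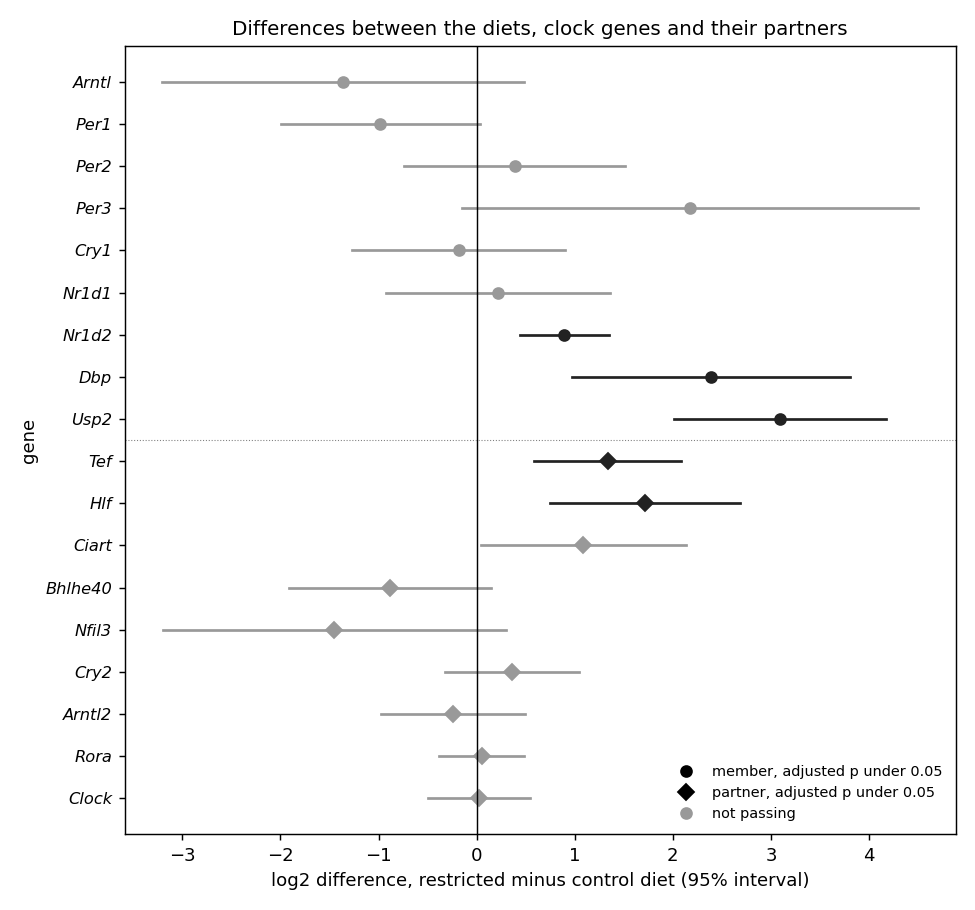
Log2 difference, restricted minus control, with its 95% interval from limma, for the 9 measured members (circles, above the dotted line) and 9 measured clock partners (diamonds); black marks genes with an adjusted p under 0.05. The intervals of Usp2, Dbp, Nr1d2, Tef and Hlf lie to the right of 0, as does that of Ciart, whose adjusted p did not pass, and that of Arntl runs from -3.20 to 0.48.

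Read by mouse, Arntl and the mean of the repressing arm lay on opposite sides of their means in 5 of 6 mice, the exception being control mouse 3. The arm's mean leaned on Per3, which ran from -2.52 to 2.09 about its own mean and was not well above background in control mouse 2. Gene by gene, Per2 and Per3 lay opposite to Arntl in all 6 mice, and Cry1 lay on its side in all 6. Per1, Nr1d1 and Nr1d2 were mixed. Each gene was set to its mean over the 6 mice, the genes of an arm were averaged, and the repressing arm was subtracted from Arntl. This contrast was 2.06, 1.41 and -0.80 in control mice 1 to 3 and 0.71, -1.05 and -2.33 in restricted mice 1 to 3. Control mouse 3 had the sign of restricted mice 2 and 3, and restricted mouse 1 that of control mice 1 and 2. The group means were 0.89 ± 1.5 and -0.89 ± 1.52 (SD, n = 3 each), a difference of -1.78 that is about as large as the spread within a diet, and it was -0.18 on slide 1 alone. The mean of Dbp and Usp2 on the same scale was -1.92, -1.99 and -0.20 in control mice and 1.02, 1.32 and 1.77 in restricted mice. This mean separated the diets, which follows from Dbp and Usp2 each doing so. The contrast of the arms, which is built from other genes and as a difference, did not separate them. Members were chosen with results of these data known, so these scores carry no test.

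The mice of 1 diet differed widely from each other in most of these genes. The median SD between mice was 0.93 over the 9 members against 0.28 over all features in the control group, and 0.77 against 0.25 in the restricted group. Pooled over the diets, the SD within a diet was 1.58 for Per3 and 1.24 for Arntl, above 99.8% and 99.3% of features, and 0.94 for Dbp, above 97.7%. For Nr1d2 it was 0.20, above 26.2% of features. In both diets Arntl and Cry1 were highest in mouse 1 and lowest in mouse 3, while Per2, Per3, Dbp and Usp2 were highest in mouse 3. Arntl lay 1.54 below its diet mean in control mouse 3 and 1.04 below it in restricted mouse 3, and Dbp lay 1.27 and 0.54 above it in the same mice. Nothing in the labels ties the equal mouse numbers of the diets to each other.

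**Figure D3:**
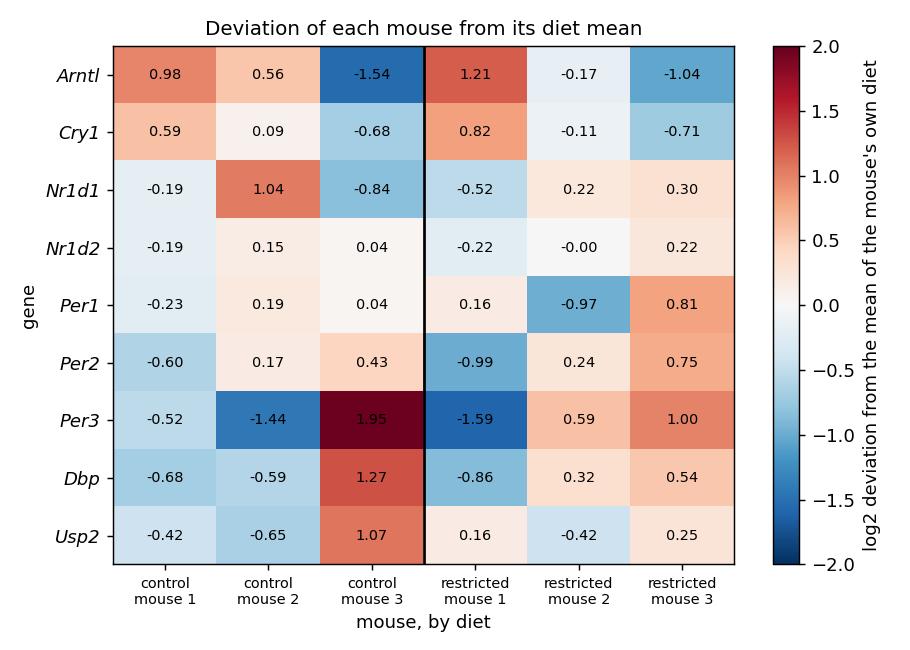
Deviation of each mouse from the mean of its own diet, in log2 units, for the 9 measured members (rows) in the 6 mice (columns; the black line parts the diets), with red above and blue below the diet mean. Control mouse 3 shows Arntl at -1.54 with Per3 at 1.95 and Dbp at 1.27, and restricted mouse 1 shows Arntl at 1.21 with Per3 at -1.59 and Dbp at -0.86.

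Among the clock's other parts, the D-box activators rose. Of 12 genes that pair with, repress or relay the members, 10 were measured, 3 rose and none fell, with a median difference of 0.21 against 0.12 over all features. That is 30% called, near the 27.5% of all features (14.6% higher). Hlf measured -0.12, 0.12 and 1.43 in control mice and 1.90, 2.22 and 2.46 in restricted mice, and rose by 1.71 ± 0.41 (adjusted p = 0.0216). Tef measured 4.09, 3.73 and 4.84 against 5.26, 5.52 and 5.87, and rose by 1.33 ± 0.32 (adjusted p = 0.0208). With Dbp, all 3 genes of the D-box activator family were thus higher, each with control mouse 3 as the highest control. Rora, a nuclear receptor that activates through the RORE, differed by 0.05 ± 0.18 (adjusted p = 0.856), or -0.042 under the slide block. Nfil3, the repressor at D-boxes, measured 3.20, 4.10 and 1.75 against 2.90, 1.06 and 0.73; its lower mean (-1.45 ± 0.74, adjusted p = 0.192) did not pass and was -0.11 under the slide block. Blocked on slide, neither Hlf nor Tef passed (1.42 and 1.05, adjusted p = 0.177 and 0.186), and each also lost its call when any mouse but control 3 and restricted 1 was left out. Tef also missed with quantile normalization (1.01, adjusted p = 0.0717).

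Kinases, ligases and cofactors that tune the clock moved both ways. Of 22 such genes, all measured, 2 rose and 2 fell (18.2%, against 27.5% of all features), with a median difference of 0.12. Prkaa2, a catalytic subunit of the energy sensor AMPK, rose by 1.21 ± 0.18 (adjusted p = 0.00373), and Wdr5, a histone methylation cofactor found with PER, by 0.66 ± 0.20 (adjusted p = 0.0449). Csnk1e, a kinase that marks PER for breakdown, fell by 0.91 (adjusted p = 0.0288), and Timeless, which also serves DNA replication, fell by 0.85 (adjusted p = 0.0169). The lower markers of dividing cells given above moved with Timeless, and their part in its change was not tested. Under the slide block the calls of Prkaa2 and Csnk1e held (adjusted p = 0.0418 and 0.0438) and those of Wdr5 and Timeless did not (adjusted p = 0.316 and 0.152). On slide 1 alone, with the same estimates, Prkaa2 and Csnk1e did not pass either (adjusted p = 0.0820 and 0.0760). Leaving out 1 mouse ended the call of Timeless (without control 2, restricted 2 or restricted 3), Csnk1e (without any mouse but control 3 and restricted 3) and Wdr5 (without any mouse but control 3), and the calls of Csnk1e and Wdr5 also ended with no background filter (adjusted p = 0.0539 and 0.0758) and that of Wdr5 with quantile normalization (0.46, adjusted p = 0.124).

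Of 24 liver genes known to cycle, all measured, 6 rose and none fell (25%, near the 27.5% of all features called, 14.6% higher), with a median difference of 0.37 against 0.12. Upp2, a uridine phosphorylase, measured 0.73, 0.64 and 0.25 in control mice and 4.53, 3.67 and 3.82 in restricted mice, and rose by 3.46 ± 0.27, or 11-fold (adjusted p = 0.000418). Control mouse 3 was the lowest of the 6 here. Mreg, a melanosome and lysosome trafficking protein, rose by 2.39 ± 0.20 (adjusted p = 0.000470), and Ppara, the receptor that turns on fatty acid oxidation, by 1.65 ± 0.28 (adjusted p = 0.00558). Elovl3, a fatty acid elongase under REV-ERB control, rose 19.5-fold with control mouse 1, which was dim, taken at the floor of its array. The gene was well above background in 2 of 3 control mice and passed the test on measured signals (adjusted p = 0.00632). Its log2 difference was 4.6 as measured, 2.52 with normexp background correction and 3.95 to 5.27 when 1 mouse was left out, and it passed in each. Gys2, liver glycogen synthase, rose by 1.32 ± 0.25 (adjusted p = 0.00886), and Cyp7a1, the rate-limiting enzyme of bile acid synthesis, by 4.06 ± 0.94 (adjusted p = 0.0195). When slide was blocked, Upp2, Mreg and Elovl3 passed (adjusted p up to 0.0137), and Ppara, Cyp7a1 and Gys2 did not (adjusted p from 0.0554 to 0.0991), and Cyp7a1 also missed without restricted mouse 1 or restricted mouse 2 (adjusted p = 0.0540 and 0.0548). Cyp7a1 rose by 2.90 without control mouse 2, 4.99 without control mouse 3 and 3.24 with normexp.

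Glucocorticoid-induced genes, which share with Per1 a direct hormone response, were read beside it. Of the 14 other genes of the list, all measured, none rose and 1 fell (7.14%, against 27.5% of all features), with a median difference of -0.27. Mt1 was saturated on all 6 arrays, Mt2 on 5, and Pck1 and Errfi1 on 2 each. A rise in these genes could be hidden, so their lack of a call does not show that they were unchanged. The gene that fell was Lcn2, a secreted iron-chelator carrier of the acute phase, which was saturated in all 3 control mice and so at least 15.5-fold lower in these mice (adjusted p = 0.0338). Its measured difference was -3.96, but -2.70 without restricted mouse 3 and -5.12 without restricted mouse 1, and the neutrophil markers given above moved with it; their part was not tested. Its difference under the slide block was -1.63 (adjusted p = 0.315), and the call also ended with no background filter and without any mouse but restricted 1 and restricted 3.

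The genes closest in pattern to Arntl and Dbp were found among 1113 features with an ordinary gene symbol, well above background on all 6 arrays and with an SD of at least 1. The members themselves were left out of this search. Over the 6 arrays the highest Pearson correlations with Arntl were those of Insig2 (0.966), Tnfrsf12a (0.965), Cldn14 (0.965), Ypel2 (0.964) and Apoa4 (0.964). Insig2, which retains sterol sensors in the endoplasmic reticulum, measured 4.87, 4.35 and 2.45 in control mice and 4.42, 3.12 and 1.91 in restricted mice, and none of the 5 passed the test between the diets (adjusted p from 0.0929 to 0.520). Under the slide block Tnfrsf12a differed by -0.62 and Apoa4 by -1.01, against -2.39 and -1.67. Control mouse 3 and restricted mouse 1 crossed the groups for Insig2 as for Arntl, which follows from choosing it by its likeness to Arntl. High correlations with Dbp were those of Tbc1d30 (0.993), Kifc2 (0.990), Polg2 (0.990) and Plekha6 (0.989), and these 4 rose, by 1.74 to 2.28 (adjusted p from 0.00999 to 0.0486). They were picked for likeness to Dbp over these same arrays, and Dbp itself separated the diets. Their rises therefore follow from the choice and are not a separate result. With the slide as a block none of the 4 passed, and leaving out single mice ended the calls of Tbc1d30, Kifc2 and Plekha6 but not that of Polg2. Tbc1d30 rose by 1.39 with normexp instead of 2.28, and Kifc2 by 2.38 without control mouse 3 instead of 1.76. These correlations are over 6 arrays that share 2 diets and a common scale, and describe likeness of pattern only.

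**Figure D4:**
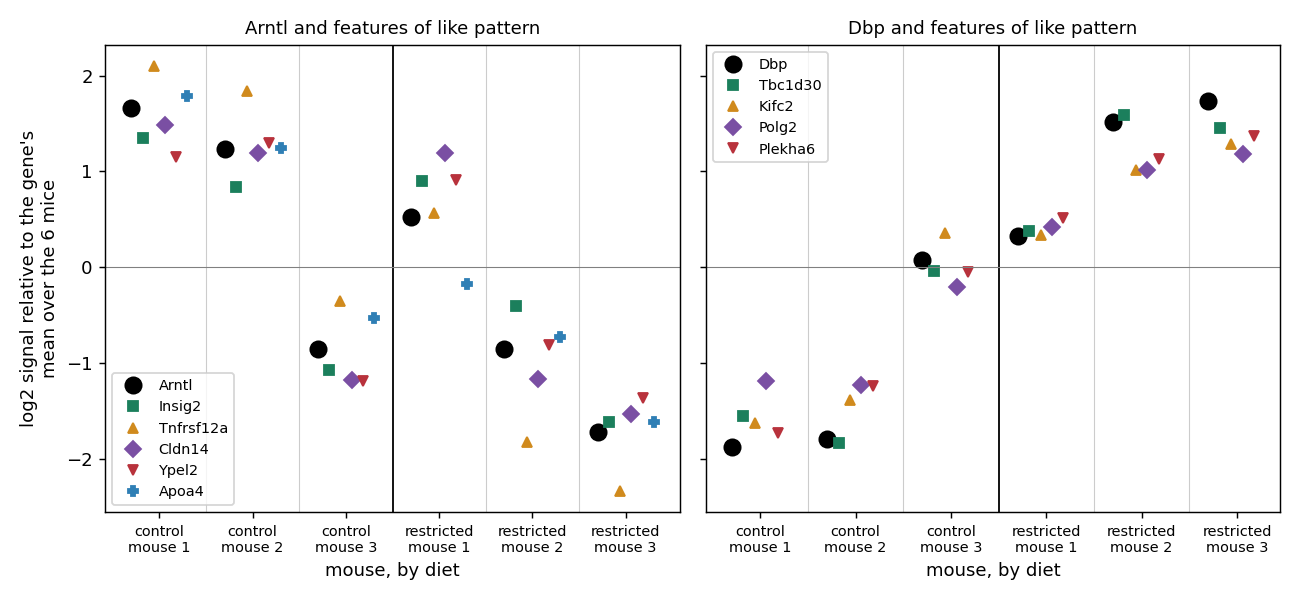
Log2 signal relative to each gene's mean over the 6 mice, for Arntl (left, black) and Dbp (right, black) with features of like pattern named above (coloured symbols), by mouse; the black vertical line parts the diets. On the left control mouse 3 lies below 0 with restricted mice 2 and 3, and on the right it lies near 0, beside restricted mouse 1.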

How the data were processed

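Liver RNA of 6 mice was read on 1-colour Agilent arrays of design 026655. The intensity values are the authors' deposited processed signals, made per the file headers with Agilent Feature Extraction 10.7.3.1 with background subtraction and detrending (build mm9); 9.3.2.1 is the version in the submitters' processing notes. From 43020 spots that are not controls, outlier spots (127 to 251 an array) were left out, log2 was taken, replicate spots were averaged and each array was set to its 75th percentile. Probes well above background on all arrays of at least 1 diet were kept (24234 of 39429), and the brightest probe of each gene name gave 19616 features. Names came from the files, looked up by RefSeq accession for 26055 probes, which changed 3358. For the fold of Elovl3 alone, the dim control array was set to the lowest signal of its probes well above background; the fits used measured signals. Limma 3.58.1 (R 4.3.3) compared the diets, with Benjamini-Hochberg adjustment, and was tested on simulated data. P-values rest on the spread between 3 mice a diet, moderated by limma toward that of all features. In the restricted group this spread also includes any difference between the slides. The genes named outside the members were the called genes of each list, up to 6, with Clock, Cry2, Rora, Tef, Hlf and Nfil3, and the 5 features most like Arntl and Dbp; 1 gene that this rule takes is not reported here, though counts include it. Some genes were also named because they were saturated. The members and lists were chosen with earlier results of these data known. Alternatives were background correction, scaling, the deposited value table, filters, moderation, array weights, blocks by mouse number or slide, slide 1 alone, every probe, and leaving out each mouse.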

Additional observations from a re-analysis of the deposited data

How the results depend on the processing

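Usp2 kept its direction and call under all 18 alternatives, and Nr1d2 and Dbp kept their direction; their lost calls are given with their values above. Over the 9 members, 131 of 160 alternative values kept direction and side of the threshold, 12 lost a call, 6 gained one and 11 turned sign. Array weights called 4 members higher and 2 lower, Arntl among the lower. With array weights 6 members and 20 other clock genes passed, against 3 and 13; with the slide as a block 1 and 5 passed, and 3013 of all features against 5386; on slide 1 alone, where the lone restricted mouse is taken to vary like the controls, 1, 3 and 2444 passed, and the contrast of the arms was -0.18. Leaving out 1 mouse gave 1 to 4 members, 7 to 16 other clock genes, 3357 to 5889 features and a contrast of -2.63 to -1.06. The difference turned sign with the slide as a block and on slide 1 alone for Cry1 (0.64), Nr1d1 (-0.30), Per2 (-0.60), Rora (-0.042), Insig2 (0.52), Cldn14 (0.69) and Ypel2 (0.49), for Cry1 with normexp background correction (0.18), for Nr1d1 (-0.11), Clock (-0.0094) and Rora (-0.053) with array weights, and for Rora with quantile normalization (-0.046). Leaving out 1 mouse, it ran from -0.59 to 0.17 for Cry1, -0.20 to 0.74 for Nr1d1, -0.14 to 0.20 for Clock and -0.057 to 0.14 for Rora. The cause of these turns was not tested. With the mouse number as a replicate block 4 members, 18 other clock genes and 6623 features passed, and Arntl was called at -1.36 (adjusted p = 0.0182). Same-numbered mice had correlations of their deviations of 0.38, -0.002 and 0.48, and 4 of 6 arrays were most like their own number. The main fit took no pairs because nothing in the labels ties equal numbers to each other. Whether they are pairs was not tested. Probes near background (Npas2, and Cry1 and Per3 on 1 array each) limit what the arrays can show.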
